A study of Homo sapiens with 4 samples.

Results

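The collagen chain genes measured here are the human genes whose symbol is COL, a number, A and a number, taken from probe sets that the array annotation assigns to exactly 1 gene. They numbered 43 of 19775 genes, covered by 112 probe sets, and each gene was represented by its probe set with the highest mean signal over the 4 arrays, with no filter on low signal. The arrays came from A549, a lung adenocarcinoma line, and H1299, a non-small cell lung cancer line from a lymph node metastasis, each transfected with scramble siRNA or with siRNA against hMOF, the histone H4 acetyltransferase encoded by KAT8. The 4 groups were thus A549 scramble, A549 hMOF siRNA, H1299 scramble and H1299 hMOF siRNA, with 1 array each, all grown with serum and transfected with the same lipid reagent per the labels' protocols. Within a line there is thus no replicate of any value, and the siRNA comparison has the lines as its only repeats.

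Collagens are secreted or membrane proteins in which 3 chains wind into a triple helix, built from short repeats that start with glycine. Fibrillar collagens form the fibres of connective tissue, type IV collagens form the network of basement membranes, and type VII forms the anchoring fibrils that tie epithelium to the tissue beneath. Chains are hydroxylated, glycosylated and folded in the endoplasmic reticulum, secreted, trimmed and crosslinked, and cells bind the product through integrins and discoidin domain receptors. In lung, basement membrane chains come in part from epithelial cells and most fibrillar collagen from fibroblasts.

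The siRNA target was lower in both lines, with a KAT8 signal of 402 and 106 in A549, against 241 and 61.8 in H1299 for scramble and hMOF siRNA (limma adjusted p = 0.0317). All 5 epithelial markers on the list (EPCAM, CDH1, KRT8, KRT18, KRT19) were higher in A549 by limma, and in H1299 the signals of CDH1 were 8.04 and 7.61. Of the 3 mesenchymal markers, VIM (15787 and 15594 against 9367 and 11326) and ZEB1 were higher in H1299, whereas CDH2 was higher in A549, at 2849 and 3733 against 766 and 930 (limma adjusted p = 0.000381). The alveolar markers did not split by line over the 4 arrays. SFTPB lay between 702 and 798, SFTPC between 110 and 120, NAPSA between 74.8 and 92.6 and NKX2-1 between 60.8 and 72.9. The probe sets of SFTPB and NKX2-1 carry the _x_at suffix, which marks probes able to match other transcripts. The CDK inhibitor gene CDKN2A, deleted in A549, stood at 33.5 and 46.5 there against 1317 and 1176 in H1299. The 7 fibroblast markers summed to 461 and 483 in A549, against 414 and 415 in H1299, with POSTN between 6.57 and 10.1, and none of them passed limma's test of the siRNA. Endothelial markers summed to 340 to 380 and the immune markers measured to 118 to 129 over the 4 arrays, and none passed either.

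In A549, COL5A1, COL4A4 and COL1A1 were at least 2-fold higher with hMOF siRNA and none of the 43 collagen genes was 2-fold lower. Over all 19775 genes, 0.485% passed the 2-fold line upwards in A549 and 0.759% downwards. In H1299 no collagen gene was 2-fold higher or lower, against 0.839% and 1.5% of all genes. Over the 43 genes the median of the log2 ratios (hMOF siRNA over scramble) was 0.14 for A549 and −0.04 for H1299, beside 0.01 in both lines for all genes. In A549, 31 of the 43 ratios (72.1%) lay above 0, against 51.9% of all genes, and in H1299 19 did (44.2%), against 51.3%. All log2 values, and the counts at 2-fold and 1.5-fold, use signal plus an offset of 29.06, which shrinks the ratios of dim genes. At a looser rule of 1.5-fold, chosen after the ratios were seen, 10 collagen genes were higher in A549, against 2.34% of all genes, and 0 were lower, against 3.84%. They were COL1A1, COL4A1, COL4A3, COL4A4, COL4A6, COL5A1, COL5A2, COL7A1, COL12A1 and COL15A1. With the probe sets of each gene averaged, COL1A1 (log2 0.48), COL4A6 (0.41), COL12A1 (0.26) and COL4A3 (0.17) fell short of 1.5-fold in A549. The rest of the 10 stayed past it. The averages also hold dim probe sets, such as those of COL4A3 and COL12A1, whose ratios the offset shrinks. In H1299 the 1.5-fold rule gave COL5A2 as higher, against 3.59% of all genes, and COL18A1 and COL27A1 as lower, against 4.9%. With averaged probe sets COL5A2 (0.55) and COL27A1 (−0.32) fell short of it there, and COL18A1 did not. These counts compare 1 array with 1 array and have no test. Each signal is a mean over a culture, so fewer expressing cells and less RNA per cell cannot be told apart.

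Brightness sets what each line can show. A probe set was called dim when its mean signal over the 4 arrays lay under 78.1, the median of such means over all probe sets. Of the 43 collagen genes, 21 were at or above that level and 22 were dim. On both A549 arrays 21 genes reached 78.1, and 18 of these had a ratio above 0, from 0.02 for COL4A5 to 2.16 for COL5A1, against 45.9% of all genes at that level. On both H1299 arrays 8 genes did (COL4A5, COL6A1, COL6A2, COL11A2, COL12A1, COL13A1, COL18A1, COL20A1), and 5 of these had a ratio below 0, against 51.8% of all genes at that level. Signals of different probe sets are not compared with each other, since probes differ in how brightly they bind.

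**Figure D1:**
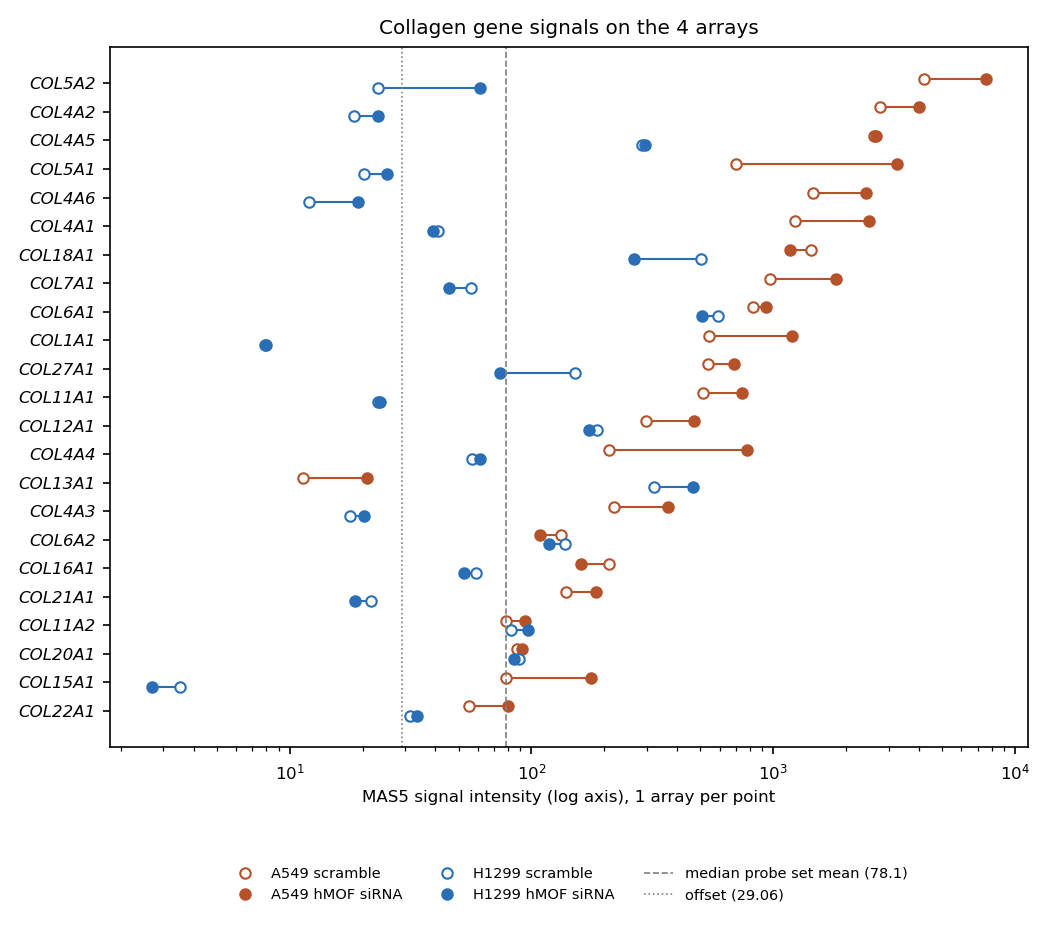
Signal intensity (log axis) of 23 collagen genes on the 4 arrays, with open points for scramble, filled points for hMOF siRNA and 1 point per array. The filled A549 points of COL5A1 (3236) and COL4A4 (780) lie far to the right of the open ones (704 and 208), while most H1299 points lie left of the dashed line at 78.1.

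When the lines were fitted together with line as the block, limma called 1 collagen gene higher with hMOF siRNA, COL5A2, and 0 lower. It called 0.617% of all genes higher and 1.27% lower. At an unadjusted p under 0.05 there were 4 collagen genes, COL5A2, COL4A6, COL13A1 and COL18A1, against 18.3% of all genes. Each gene has only 1 residual degree of freedom in this fit, and a gene that moves in A549 alone has a large spread between the lines. Nothing in the labels says that the arrays came from repeated cultures. The p values rest on how far the siRNA ratios of A549 and H1299 differ, a difference that may also hold technical noise. limma weighs the gene's own difference (1 residual degree of freedom) with a value pooled over all genes (3.63 prior degrees of freedom). The p values measure no spread among repeated cultures.

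COL5A2 encodes the second chain of type V collagen, a fibrillar collagen that controls the width of type I fibres. With scramble its A549 signal was 4205 and with hMOF siRNA 7596, against 23.2 and 61.1 in H1299. It was higher with hMOF siRNA in each line, and both H1299 signals lay under 78.1. The log2 ratios were 0.85 and 0.79, a mean of 0.82 ± 0.04 (SD, n = 2 lines), and COL5A2 rose by limma (SE 0.09, adjusted p = 0.0388). Without the offset the signal was 1.81-fold higher in A549 and 2.63-fold higher in H1299. The H1299 scramble signal lay under the offset, so the small SD is set in part by it. The other COL5A2 probe set gave 1499 and 3432 in A549, against 19.9 and 32.1 in H1299, with log2 ratios of 1.18 and 0.32. The call was lost with no offset (limma adjusted p = 0.0913), with a larger offset of 56.5 (0.0796), with all probe sets averaged (0.0796), without the block (0.99999) and with a variance trend (0.0524).

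COL5A1 encodes the main chain of type V collagen and pairs with the COL5A2 product in the same trimer. Its signal was 704 and 3236 in A549 (scramble and hMOF siRNA) and 20.2 and 25.2 in H1299. The A549 signal, without the offset, was 4.60-fold higher with hMOF siRNA, and in H1299 both signals lay under the offset. All 3 COL5A1 probe sets showed the A549 difference, with log2 ratios from 1.85 to 2.16, and in H1299 they ran from −0.05 to 0.15. Over both lines COL5A1 did not pass limma's test (log2 change 1.15 ± 1.43 as mean and SD over 2 lines, adjusted p = 0.310). COL5A3, the third type V gene, was dim on every array, at 61.6 and 61.7 in A549, against 54.4 and 57.1 in H1299. The 250 bases before the COL5A1 start are shown because this gene had the log2 ratio furthest from 0 among the 43 in A549. They lie at chr9:134641553-134641802 on the plus strand of GRCh38.p14 (RefSeq), are 74% G and C and hold the GC box GGGCGG on either strand 2 times, with no match to the TATA motif TATAAA or to the CCAAT box, and the matches are in capitals.
COL5A1 upstream: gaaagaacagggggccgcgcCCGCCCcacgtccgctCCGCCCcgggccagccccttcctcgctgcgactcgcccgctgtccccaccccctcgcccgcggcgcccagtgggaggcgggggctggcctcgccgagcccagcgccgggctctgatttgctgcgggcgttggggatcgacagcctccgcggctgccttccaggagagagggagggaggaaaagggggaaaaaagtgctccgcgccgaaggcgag

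COL1A1 and COL1A2 encode the chains of type I collagen, the main fibre of bone, skin and scar. With scramble the A549 signal of COL1A1 was 541 and with hMOF siRNA 1191, against 7.97 and 7.89 in H1299. Both A549 signals lay above both H1299 signals, which were under the offset, and the log2 ratio was 1.10 in A549 and −0.003 in H1299. Its probe sets did not all show this. A second one, 202310_s_at, went from 154 to 332 in A549 and stood at 6.78 and 6.63 in H1299. By contrast 217430_x_at, whose probes may match other transcripts, read 156 and 173 in A549, against 141 and 154 in H1299. Probe set 202312_s_at stood at 112 and 111 in A549, against 112 and 105 in H1299. With all its probe sets averaged, the A549 log2 ratio of COL1A1 was 0.48, short of 2-fold. COL1A2, whose chain completes the usual type I trimer, was dim, at 39.5 and 52.2 in A549, against 45.5 and 42.8 in H1299. COL3A1, the chain of type III collagen, was dim too, at 49.2 and 60.5 in A549, against 52.5 and 45.8 in H1299.

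The other fibrillar genes with signal were COL11A1, COL27A1 and COL11A2, chains of cartilage collagens. COL11A1 was at 512 and 741 in A549, against 23.1 and 23.6 in H1299, which gave log2 ratios of 0.51 and 0.01. A second COL11A1 probe set gave 0.44 and 0.27. COL27A1 was at 536 and 687 in A549, against 151 and 73.8 in H1299. It lay higher with hMOF siRNA in A549 and lower in H1299, with log2 ratios of 0.34 and −0.81, and its 3 brighter probe sets kept those directions (0.12 to 0.34 and −0.81 to −0.23). COL11A2 stood between 78.8 and 96.8 on all arrays. COL2A1 and COL24A1 were dim. All 11 fibrillar genes had an A549 ratio above 0, against 51.9% of all genes, with a median of 0.25. In H1299 6 of 11 did, against 51.3% of all genes, with a median of 0.01. Of the 11 genes 5 were dim, such as COL5A3 with an A549 ratio of 0.002, and the sign of a ratio at such signals may be noise.

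**Figure D2:**
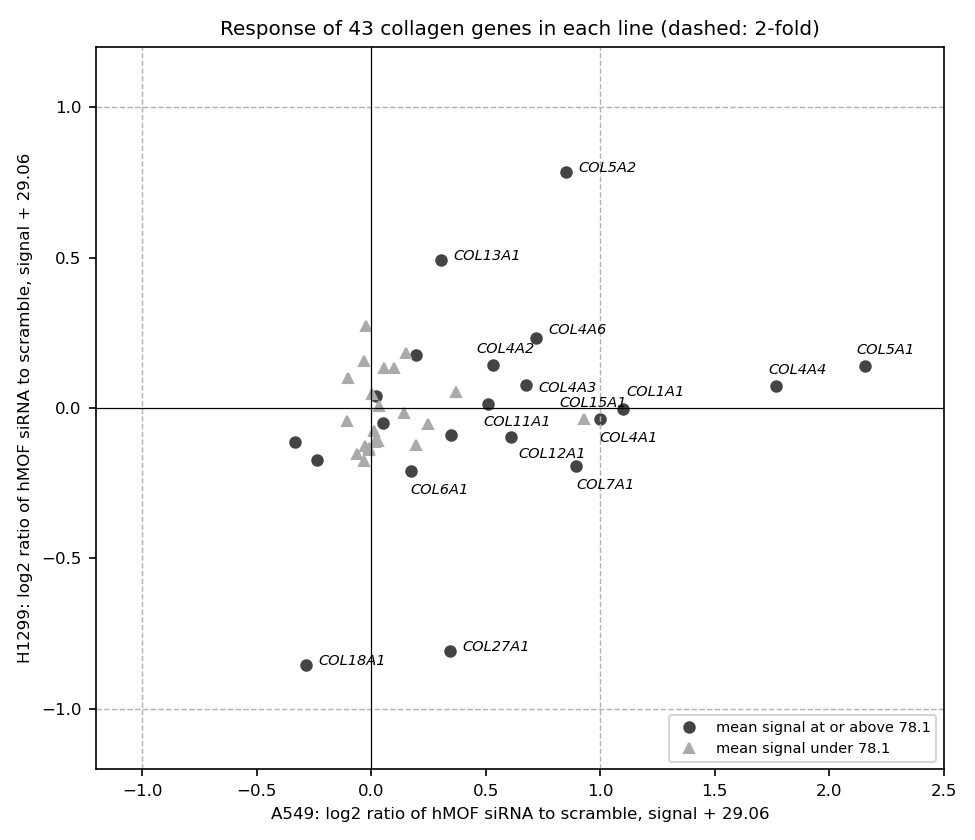
The log2 ratio of hMOF siRNA to scramble in A549 (horizontal) and H1299 (vertical) for the 43 collagen genes, 1 array pair per line, with circles for genes at or above a mean signal of 78.1 and triangles for dimmer genes. COL5A1 (2.16) and COL4A4 (1.77) lie far right near a H1299 ratio of 0, COL5A2 is high on both axes (0.85 and 0.79), and COL27A1 (0.34 and −0.81) lies right of 0 and low.

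Type IV collagen is the scaffold of basement membranes and is made from 6 genes, arranged as 3 pairs that start back to back and are read in opposite directions. All 6 had a ratio above 0 in A549, against 51.9% of all genes, with a median of 0.70. In H1299 5 of 6 did, against 51.3% of all genes, with a median of 0.07. None passed limma's test of the siRNA, with adjusted p from 0.192 for COL4A6 to 0.918 for COL4A5. The intervals between the starts are 126 bases for COL4A1 and COL4A2, 135 bases for COL4A3 and COL4A4 and 379 bases for COL4A5 and COL4A6, from the RefSeq starts of GRCh38.p14.

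COL4A1 and COL4A2 encode the chains of the common type IV trimer found in nearly all basement membranes. COL4A1 signal was 1234 and 2493 in A549, against 41.0 and 39.3 in H1299. COL4A2 was at 2757 and 4002 in A549, against 18.4 and 23.3 in H1299. Both genes were higher with hMOF siRNA in A549 and near or under the offset in H1299. The A549 log2 ratio was 0.998 for COL4A1, just under the 2-fold line, and 0.53 for COL4A2. A second probe set gave 1.28 for COL4A1 and 0.52 for COL4A2, so the unequal size within the pair was seen on each gene's 2 probe sets. The pair's COL4A1 ratio in H1299 was −0.04 and that of COL4A2 was 0.14.

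COL4A3 and COL4A4 encode chains of the type IV trimer of glomerular and alveolar basement membrane, which is completed by the COL4A5 product. COL4A4 signal was 208 and 780 in A549, against 56.9 and 61.2 in H1299. A549 with hMOF siRNA was the array that stood apart, 3.74-fold above A549 scramble without the offset. The log2 ratio was 1.77 in A549 and 0.07 in H1299. A second COL4A4 probe set gave 1.66 and −0.002, while 241565_at, read near the dim level, gave 0.23 and 0.36. COL4A3 was at 219 and 368 in A549, against 17.7 and 20.2 in H1299, which gave log2 ratios of 0.68 and 0.08. Its 6 other probe sets were all dim.

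COL4A5 and COL4A6 lie back to back on chromosome X, and their A549 ratios differed. COL4A5 was at 2613 and 2650 in A549, against 285 and 294 in H1299, with log2 ratios of 0.02 and 0.04. COL4A6, whose chain joins COL4A5 chains in epithelial basement membranes, was at 1459 and 2422 in A549, against 12.0 and 19.2 in H1299. Its log2 ratios were 0.72 and 0.23, and a second probe set gave 0.49 and 0.05. The third COL4A6 probe set, dim by its mean, did not show the A549 difference, at 81.4 and 82.1 there (log2 0.01). The intervals shared by the COL4A1 and COL4A3 pairs are shown because each holds the starts of genes that were both higher with hMOF siRNA in A549, by unequal amounts. The first is chr13:110307158-110307283 on the minus strand (80.2% G and C) and the second chr2:227164489-227164623 on the plus strand (68.1% G and C), both of GRCh38.p14 from RefSeq, with matches to the motifs named for COL5A1 on either strand in capitals.
COL4A1/COL4A2 interval: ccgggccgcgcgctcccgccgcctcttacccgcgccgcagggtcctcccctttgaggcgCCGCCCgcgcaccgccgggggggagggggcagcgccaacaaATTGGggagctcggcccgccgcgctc
COL4A3/COL4A4 interval: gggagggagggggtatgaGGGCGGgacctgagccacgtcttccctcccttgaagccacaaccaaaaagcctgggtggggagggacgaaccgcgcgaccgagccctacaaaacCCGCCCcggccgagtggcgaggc

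The first interval holds 1 GGGCGG and 1 CCAAT match, and the second holds 2 GGGCGG matches, with no TATAAA in either. Of 35116 RefSeq start windows of the same length, GGGCGG stands in 34.6% at 126 bases and 35.5% at 135 bases, CCAAT in 21.1% and 22.1%, and TATAAA in 5.87% and 6.13%. Over the full 250 bases before the start, the shares are 42.6%, 32.0% and 10.7%. The search included both strands and the motifs do not share letters in these sequences. A match is a description of the letters only.

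COL7A1 encodes the chain of anchoring fibrils. Its signal was 966 and 1822 in A549, against 56.1 and 45.5 in H1299. It lay higher with hMOF siRNA in A549 (log2 0.90) and slightly lower in H1299 (−0.19), where both signals were under 78.1. The second probe set gave 0.69 and −0.13. The mean over both was 0.35 with an SD of 0.77 (n = 2 lines, limma adjusted p = 0.590). The 250 bases before its start, at chr3:48595330-48595579 on the minus strand of GRCh38.p14 (RefSeq), are shown because this gene, higher with hMOF siRNA in A549, is the one of those printed that has a TATAAA match. They are 60.8% G and C and hold TATAAA 1 time, GGGCGG 3 times and no CCAAT, counted on either strand.
COL7A1 upstream: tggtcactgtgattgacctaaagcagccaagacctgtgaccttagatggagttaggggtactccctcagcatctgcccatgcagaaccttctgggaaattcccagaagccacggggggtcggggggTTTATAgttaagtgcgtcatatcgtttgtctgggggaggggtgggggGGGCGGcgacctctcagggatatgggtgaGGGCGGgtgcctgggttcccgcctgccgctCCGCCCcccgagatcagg

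The FACIT collagens sit on the surface of fibres and bridge them to other matrix. COL12A1 was at 298 and 470 in A549, against 187 and 173 in H1299, with log2 ratios of 0.61 and −0.10. COL16A1 ran the other way in A549, at 210 and 161, and stood at 59.1 and 52.5 in H1299. COL21A1 was at 140 and 185 in A549, against 21.8 and 18.7 in H1299. COL20A1 lay between 84.5 and 91.5 on all 4 arrays and COL22A1 between 31.4 and 79.9. Of the 10 FACIT genes, 6 had an A549 ratio above 0 and 4 an H1299 ratio above 0, against 51.9% and 51.3% of all genes. The FACIT medians were 0.04 and −0.07.

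The multiplexins COL15A1 and COL18A1 are basement membrane collagens that carry sugar chains, and COL18A1 is the source of the endostatin fragment. COL18A1 was lower with hMOF siRNA in both lines, at 1437 and 1175 in A549, against 503 and 265 in H1299. The log2 ratios were −0.28 and −0.86, a mean of −0.57 with an SD of 0.40 over the 2 lines (limma adjusted p = 0.166), and the second probe set gave −0.35 and −0.56. COL15A1 went the other way in A549, from 78.3 to 175, and stood at 3.53 and 2.69 in H1299. Its mean signal was dim through H1299, and its A549 log2 ratio was 0.93.

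Type VI collagen forms beaded filaments from the chains of COL6A1, COL6A2 and COL6A3. COL6A1 was at 821 and 929 in A549, against 590 and 506 in H1299, with log2 ratios of 0.17 and −0.21. The other COL6A1 probe sets at or above 78.1 had A549 ratios below 0, as low as −0.13. COL6A2 was at 132 and 108 in A549, against 137 and 119 in H1299. COL6A3 lay between 15.1 and 21.6, so no array gave signal above the offset for the third chain. Among transmembrane collagens, COL13A1, found at cell adhesions and the neuromuscular junction, was at 11.4 and 20.9 in A549, against 322 and 465 in H1299. It was higher with hMOF siRNA in H1299 by log2 0.49 and did not pass over both lines (mean 0.40, SD 0.13 over 2 lines, limma adjusted p = 0.140).

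The remaining 20 dim genes, apart from COL15A1 and COL22A1, had signals between 14.0 and 82.7, and 19 of them were under 78.1 on every array. Their log2 ratios ran from −0.10 to 0.25 in A549 and from −0.17 to 0.27 in H1299, and their limma adjusted p values were 0.444 or above. This range includes the network chains COL8A1, COL8A2 and COL10A1, the type IX chains and COL14A1. At such signals the arrays cannot tell a low level from none.

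**Figure D3:**
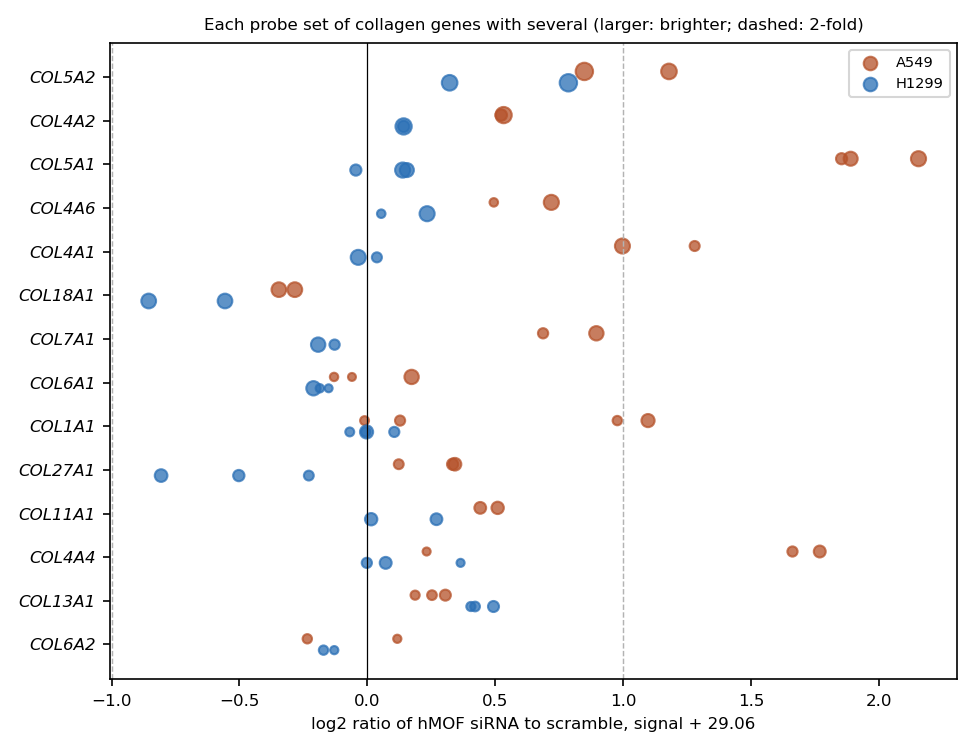
The log2 ratio of hMOF siRNA to scramble for each probe set at or above a mean signal of 78.1, for the 14 collagen genes with more than 1 such probe set, with A549 and H1299 in separate colours and larger points for brighter probe sets. The 3 COL5A1 probe sets cluster from 1.85 to 2.16 in A549, whereas the 4 COL1A1 probe sets split between about 0 and about 1.

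Agreement among probe sets was examined for these 14 genes. In A549 the direction was shared by all such probe sets of 11 genes, and the exceptions were COL1A1, COL6A1 and COL6A2. For the difference between lines under scramble the direction was shared in 12 genes, and the exceptions were COL6A1 and COL13A1.

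The lines were then compared with each other, blocking on the siRNA. The only repeats of a line are its scramble and hMOF siRNA arrays. The p values of this comparison thus rest on how alike the gap was under scramble and under hMOF siRNA. limma's pooling over all genes enters here too. These p values measure no spread among cultures of a line. By limma 19 of the 43 collagen genes (44.2%) were higher in A549, against 19.5% of all genes, and 1 gene (2.33%) was higher in H1299, against 17.6% of all genes. The median log2 difference of H1299 minus A549 was −0.15 over the 43 genes and −0.02 over all genes. All 6 type IV genes, both multiplexins and COL7A1 were among the genes higher in A549. Of the 7 fibroblast markers, 1 (THY1) was also higher in A549, at 120 and 104 against 61.2 and 66.7 (limma adjusted p = 0.0140), and its part in the collagen difference was not tested. In 14 of the 19 genes both H1299 signals lay under 78.1, and in 8 they lay under the offset, so the sizes of those differences are set in part by it.

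The difference was 6.37 on the log2 scale for COL5A2 (adjusted p = 5.39e-05 by limma), 6.07 for COL4A2, 5.42 for COL4A6 and 4.69 for COL4A1. It was 4.90 for COL5A1, 4.49 for COL1A1, 4.09 for COL7A1, 3.62 for COL11A1 and 3.06 for COL4A5. Among these only COL4A5 kept H1299 signals above 78.1. Smaller differences were found for COL4A3 (2.71), COL4A4 (2.31), COL27A1 (2.23), COL15A1 (2.20), COL21A1 (1.95), COL18A1 (1.75) and COL16A1 (1.33). The smallest that passed were COL12A1 (0.95, SE 0.19), COL6A1 (0.65, SE 0.13) and COL22A1 (0.64, SE 0.12), with limma adjusted p of 0.0174, 0.0177 and 0.0146. With the probe sets of each gene averaged, dim ones included, 8 of the 20 differences between lines were more than 1.5 times smaller. They became 2.70 for COL4A6, 1.73 for COL4A5, 1.57 for COL1A1, 1.05 for COL27A1 and 0.49 for COL4A3, which still passed, and 0.31 for COL12A1 and 0.07 for COL6A1, which did not.

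COL13A1 was the gene higher in H1299, by 3.21 on the log2 scale (SE 0.10; limma adjusted p = 0.000122). Its A549 signals of 11.4 and 20.9 lay under the offset and its H1299 signals were 322 and 465. The other COL13A1 probe sets, both with the _x_at suffix that marks probes able to match other transcripts, did not show the difference, at 127 and 157 in A549 against 109 and 155 in H1299 for 211809_x_at. With its probe sets averaged the COL13A1 difference was 1.08, and it still passed. COL6A2 differed by 0.08 and did not pass (limma adjusted p = 0.605).

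The gap between the lines is set out under each siRNA for 3 of these genes. For COL5A1 the A549 minus H1299 difference was 3.90 under scramble and 5.91 under hMOF siRNA, and for COL4A4 it was 1.47 and 3.16. COL4A5 stood at 3.07 and 3.05. Whether the lines respond differently was not tested, since each has 1 pair of arrays.

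**Figure D4:**
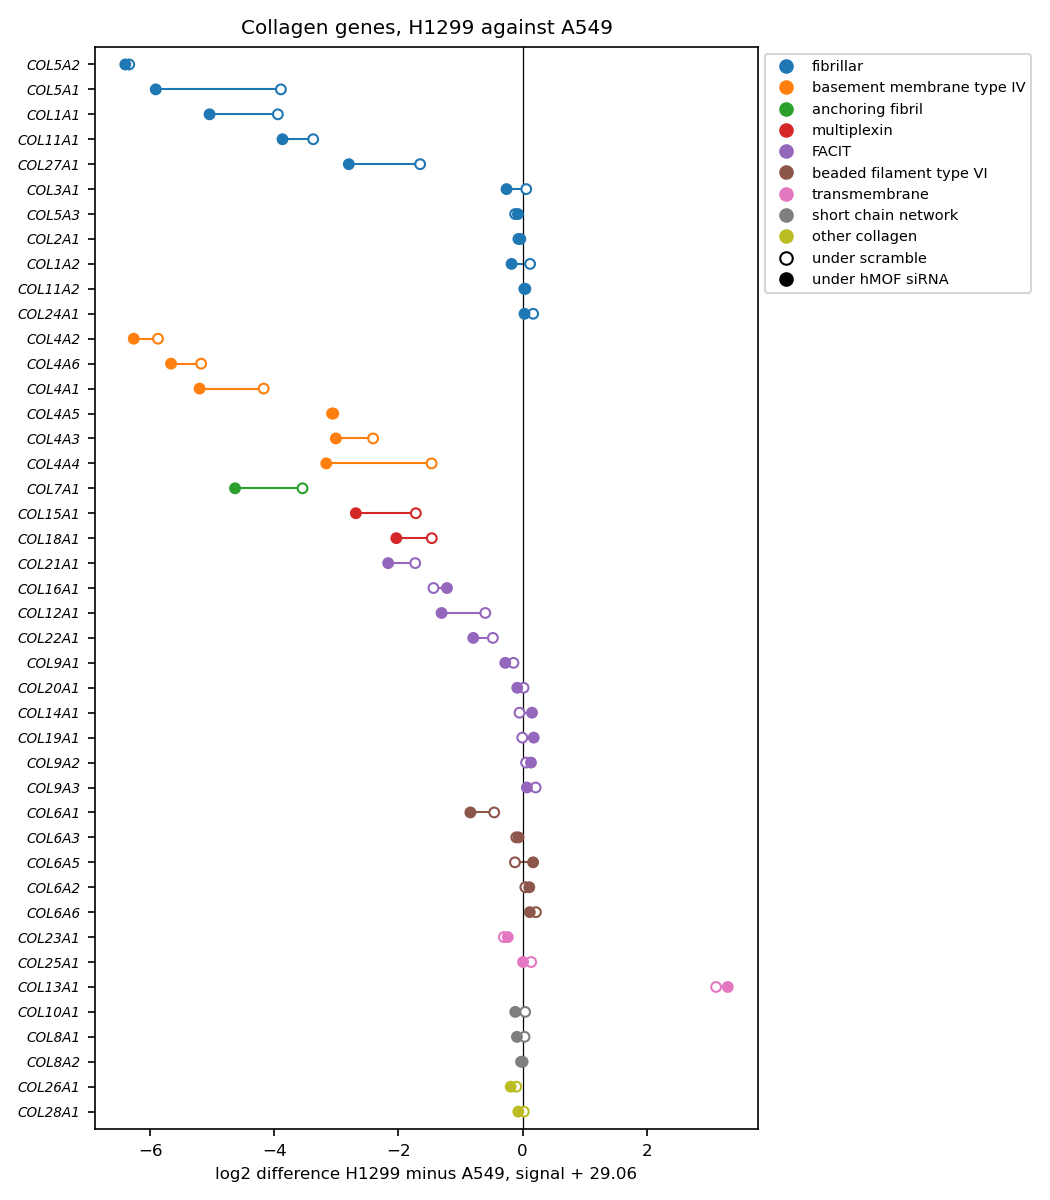
The log2 difference of H1299 minus A549 for the 43 collagen genes, coloured by class, with open points under scramble and filled points under hMOF siRNA. Type IV genes and 5 fibrillar genes lie well left of 0, COL13A1 lies to the right, and most dim genes lie near 0.

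Genes that make, bind and degrade collagen were described from lists chosen for this purpose. Of 32 genes measured for collagen biosynthesis and crosslinking, none passed limma's test of the siRNA in either direction (11 at an unadjusted p under 0.05, a rule that 18.3% of all genes met), and the medians were 0.05 in A549 and −0.04 in H1299. P4HA3, a catalytic subunit of prolyl 4-hydroxylase, was at 611 and 1237 in A549, against 32.6 and 51.5 in H1299 (log2 0.98 and 0.39; limma adjusted p = 0.125). P4HB, the partner subunit of that enzyme, had log2 ratios of 0.33 and 0.56. FKBP14, a prolyl isomerase of the endoplasmic reticulum, had 0.48 and 0.37, and TMEM38B, an endoplasmic reticulum ion channel, had 0.25 and 0.68. LOXL1, a crosslinking enzyme related to lysyl oxidase, was lower at 30.0 and 9.97 in A549, against 363 and 211 in H1299 (limma adjusted p = 0.0570). SERPINH1, the collagen chaperone HSP47, had 0.42 in A549 and −0.19 in H1299. LOX (−0.72 and −0.10), PLOD3 (−0.28 and −0.40) and CRTAP (−0.28 and −0.53) were lower in both lines. Of the 32 ratios, 20 (62.5%) lay above 0 in A549 and 14 (43.8%) in H1299, against 51.9% and 51.3% of all genes.

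Of 10 collagen receptor genes, 1 fell, 0 rose and 9 did not pass, where limma called 1.27% of all genes lower and 0.617% higher. At an unadjusted p under 0.05 there were 3, against 18.3% of all genes. The gene that fell was ITGA2, the alpha subunit of a collagen-binding integrin, at 1462 and 440 in A549, against 903 and 154 in H1299 (log2 −1.67 and −2.34, limma adjusted p = 0.0347). No gene of the series was called for the siRNA with no offset, with the larger offset or without the block, so the ITGA2 call was lost there. ITGA11, the alpha subunit of another collagen-binding integrin, was at 162 and 282 in A549, against 59.9 and 74.9 in H1299. ITGA10 was at 28.4 and 25.1 in A549, against 401 and 182 in H1299, and MRC2, a receptor that takes up collagen, had log2 ratios of 0.32 and −0.69. DDR2, a collagen-binding tyrosine kinase, lay between 71.9 and 84.8.

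Of 13 genes for collagen-degrading proteases and their inhibitors, none passed (2 at an unadjusted p under 0.05, against 18.3% of all genes). The interstitial collagenase gene MMP1 was lower in each line, at 67.8 and 27.8 in A549, against 194 and 57.7 in H1299 (log2 −0.77 and −1.36; limma adjusted p = 0.0619). The cathepsin gene CTSK had log2 ratios of −0.45 and −0.42. The membrane collagenase gene MMP14 had 0.06 and 0.26, and the inhibitor genes TIMP1 and TIMP2 had −0.003 and −0.05 in A549 and −0.38 and −0.26 in H1299.

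Among 22 other basement membrane and matrix genes none passed either (7 at an unadjusted p under 0.05, against 18.3% of all genes), with medians of −0.04 in A549 and −0.14 in H1299. The matrix glycoprotein gene TNC was at 98.0 and 245 in A549, against 232 and 231 in H1299, and THBS1 at 785 and 1473 in A549, against 951 and 1168 in H1299. The 8 laminin chain genes measured, partners of type IV collagen in basement membrane, had log2 ratios from −0.28 (LAMA5) to 0.23 (LAMA4) in A549, and from −0.53 to 0.49 in H1299 for the same genes at either end. NID1, which links laminin to type IV collagen, was at 232 and 250 in A549, against 202 and 67.1 in H1299. PXDN, the peroxidase that crosslinks type IV collagen, had −0.33 and −0.62, and SPARC, a collagen-binding secreted protein, had −0.53 and −0.60.

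**Figure D5:**
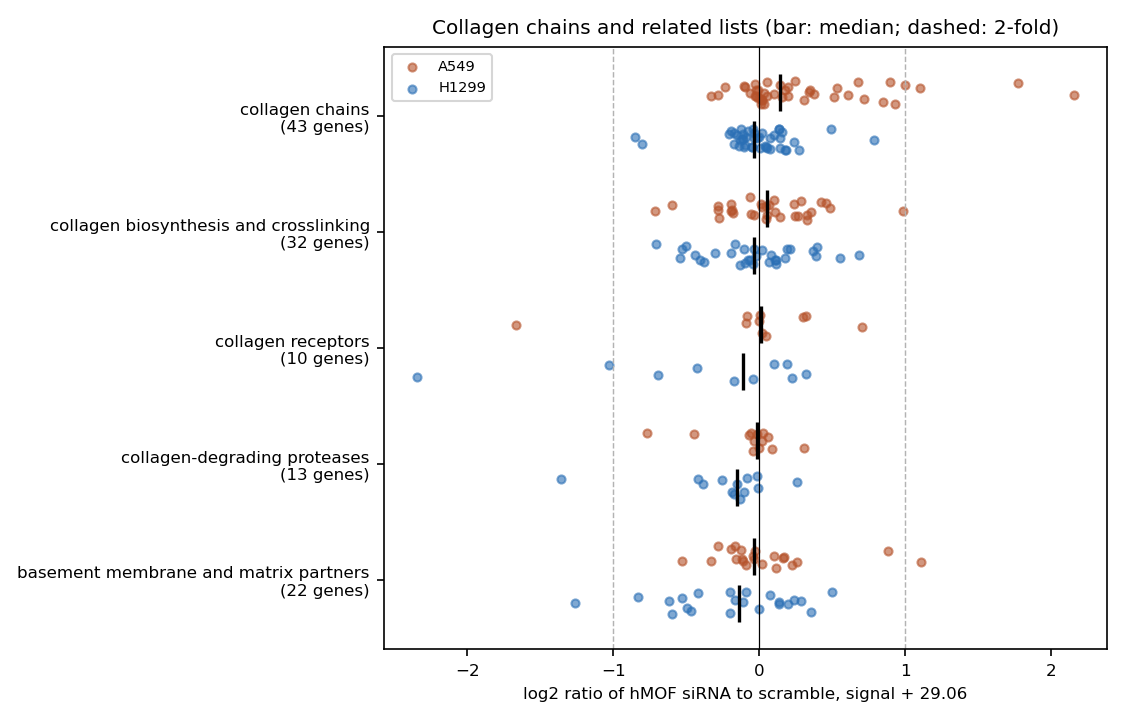
The log2 ratio of hMOF siRNA to scramble for each gene of the collagen chains and the 4 related lists, in A549 and H1299, with a bar at each median. The collagen chains reach further right in A549 (up to 2.16) than in H1299 (up to 0.79), and the receptor gene far to the left in both lines is ITGA2.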

How the data were processed

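Total RNA was measured on 1-colour Affymetrix arrays with 54675 probe sets, 1 array for each of 4 groups taken from the source names; the treatment tag contradicts the source name on 2 arrays and was not used. The authors used MAS5, per the submitters' processing notes, and deposited a linear signal intensity for each probe set; for MAS5 version and scaling are not given in the sources. MAS5 estimates vary most at low signal. Array medians were 73.3 to 75.4, and the number of arrays limits precision. Array detection calls were not used here.

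Probe sets were named through the platform annotation (41091 with 1 gene, 1801 with several, 11721 others with none and 62 controls), and RefSeq symbols of GRCh38.p14 changed 0 of them. COL17A1 and some listed genes are not analysed here. Of the 43 genes, 31 had a RefSeq promoter entry.

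Signals plus 29.06 (their 20th percentile) were taken to log2. limma 3.58.1 in R 4.3.3 (lmFit, eBayes) was fitted to all 19775 genes with terms for line and siRNA, Benjamini-Hochberg threshold 0.05, with 1 residual and 3.63 prior degrees of freedom. The arrays of a line pair because they are the same cells. Within a line, genes were counted at 2-fold with no test. The procedure was tested on simulated data. The members and lists were chosen with earlier results of these data known. Named genes were all collagen genes at or above a mean signal of 78.1, dimmer ones past a threshold, and list genes past the test. Up to 5 per list with the largest mean ratio were also named. Others were added for their role or after their values were seen (SERPINH1, LOX, PLOD3, CRTAP, LAMA4, LAMA5 and the dim collagen genes named). Alternatives were offsets of 0 and 56.5 (40th percentile), filters at 78.1 and 179 (50th and 70th percentiles), quantile and median scaling, averaged probe sets, no _x_at probe sets, no block, a variance trend, and leaving out each line or siRNA.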

Additional observations from a re-analysis of the deposited data

Results flagged for a closer look

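COL27A1, a fibrillar collagen gene, had ratios on opposite sides of 0 in the lines, each by a log2 size of at least 0.25. With hMOF siRNA its log2 signal differed from scramble by 0.34 in A549 and by −0.81 in H1299. With 1 array pair per line the difference was not tested.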

How the results depend on the processing

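Of 23 named collagen genes under 10 alternatives, most kept the direction and the side of the threshold, 212 of 220 values for the siRNA and 212 of 220 for the line difference. These shares were in part fixed beforehand. The log2 values of these genes were identical to the main ones under both filters, the variance trend, the unblocked fit and the _x_at exclusion. Direction could not turn there. For the siRNA only COL5A2 was called in the main fit, so for the other genes the same side means still not called. The 2-fold counts with no offset were 5 higher in A549, against 3, and 1 higher and 1 lower in H1299, against 0 and 0. With averaged probe sets, COL4A1, COL4A4, COL5A1 and COL5A2 were 2-fold higher in A549, and COL1A1 was not. At 1.5-fold, chosen after the data were seen, the counts were 10 in A549 and 1 and 2 in H1299. With averaged probe sets, dim ones included, COL1A1, COL4A3, COL4A6 and COL12A1 fell short of 1.5-fold in A549, as did COL5A2 and COL27A1 in H1299. The siRNA call on COL5A2 went from 1 gene to 0 with no offset, the larger offset, averaged probe sets, no replicate block and the variance trend. Over all genes, the siRNA calls (122 higher, 251 lower) became 0 and 0 with no offset, the larger offset or no block, 81 and 149 with averaged probe sets, 200 and 399 under the stricter filter, 250 and 336 after quantile scaling and 207 and 413 after centring. Directions turned for 6 values near 0. Over both lines COL6A1 was at 0.0452 after quantile scaling, and COL20A1 at −0.00667 after quantile scaling and −0.00386 after centring. Between lines COL11A2 was at −0.14 with averaged probe sets, and COL20A1 at 0.00374 and 0.00147 after the scalings. The line calls on COL6A1 (−0.07) and COL12A1 (−0.31) were lost with averaged probe sets, and those on COL12A1, COL4A4 and COL22A1 without the block. No pairing by replicate number exists, and the line is the block. Without the replicate block 16 collagen genes were called higher in A549, against 19. Of all 19775 genes 2531 were, against 3860. Leaving out a line leaves 1 array pair and no test, and then the change of COL5A2 ran from 0.79 to 0.85 and that of COL5A1 from 0.14 to 2.16. Signals under the offset on both H1299 arrays limit the line differences of 8 genes, COL4A2, COL5A1, COL4A6, COL1A1, COL11A1, COL4A3, COL21A1 and COL15A1.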
